A study of Mus musculus with 15 samples.

Results

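The transcripts described here are those of the NF-κB system, chosen as a named list: the 5 subunits (*Nfkb1*, *Nfkb2*, *Rela*, *Relb* and *Rel*), the feedback regulators *Nfkbia*, *Tnfaip3* and *Birc3*, the cytokine *Tnf*, and the adhesion molecule *Icam1*. All 10 members were found by gene symbol among the 18279 genes measured. NF-κB dimers are held in the cytoplasm by inhibitors of the IκB family until a receptor such as that of TNF activates the IκB kinase (IKK), which marks the inhibitor for destruction and frees the dimer to enter the nucleus. Several genes that the dimers then switch on encode proteins that end the signal, among them IκBα and A20. ICAM1, which leukocytes bind through their β2 integrins, is a classical NF-κB target.

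RNA from 15 subcutaneous Renca tumors was sequenced in bulk to ask how loss of PBRM1, a subunit of a SWI/SNF chromatin remodeling complex, changes tumor expression. Renca is a BALB/c renal carcinoma line, and the hosts were female BALB/c mice, 4 to 6 weeks old, given the cells in Matrigel under the skin of the back. There were 5 control tumors (numbered 1 to 5), 5 from *Pbrm1* knockout clone 4 (tumors 6 to 10) and 5 from *Pbrm1* knockout clone 18 (tumors 11 to 15). The sample records name parental Renca cells as the source of the control tumors, whereas the series design names control knockout cells. The knockout was made with transient Cas9 and a repair plasmid carrying puromycin resistance and a red fluorescent protein, and each knockout line was 1 clone. Each group therefore came from 1 line, so genotype and line cannot be told apart. Where a clone was compared on its own, the p values measure the spread between tumors of a line. The tests of all knockout tumors against control took both clones as 1 group, with no term for the clone. Their spread therefore also takes in the difference between the clones. The records say that mice were untreated or given PD-1 antibody without stating which mice gave these tumors.

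*Pbrm1* itself had 7451.5 to 9870.6 normalized counts in the control tumors and 2483.8 to 3137.5 in the knockout tumors, 31.0% of the control mean. The groups did not overlap. A normalized count is a gene's reads divided by a size factor for its tumor. The tumors held 32924414 to 49099168 reads on genes, and the members had from 143 reads (*Tnf*, its lowest tumor) to 6165 reads (*Nfkb1*, its highest tumor). Renal epithelial markers were present in all tumors, with a summed level over 5 genes of 107754.8 to 128805.2 in control and 90775.1 to 120872.1 in knockout tumors, where 8 of 10 sums lay under the lowest control sum. Of these 5 genes *Krt18* was lower (log2 difference -0.32, limma adjusted p = 0.0197) and *Epcam* higher (1.23, limma adjusted p = 0.00286).

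Of the 10 members, 2 passed the test between the 10 knockout and the 5 control tumors, *Icam1* and *Birc3*, and both were lower. By the same test (limma on log2(normalized count + 1), adjusted p under 0.05 over 18250 genes) 22.1% of all genes passed, so a count of 2 among 10 is near the background. For lower genes alone the background was 12.9%, and for higher genes, of which the members held 0, it was 9.23%. The other 8 members, including all 5 subunits, did not pass, and 2 members had an unadjusted p under 0.05. The median log2 difference over the members was -0.04, beside -0.02 over all genes tested.

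**Figure D1:**
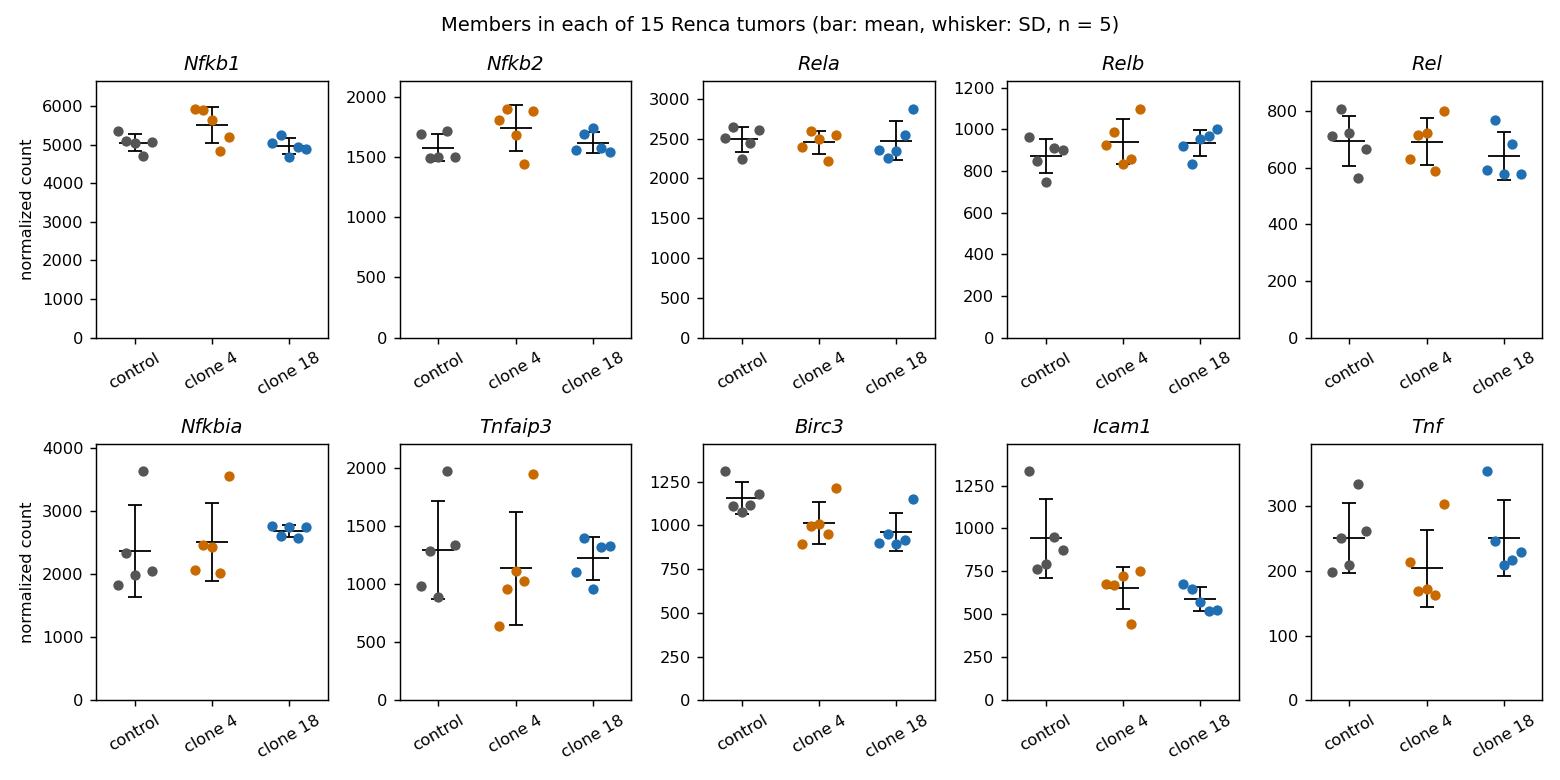
Normalized counts of the 10 members (y axes, from 0) in each of 15 tumors, grouped on the x axes as control, clone 4 and clone 18. Points are tumors, bars are means and whiskers are SD over 5 tumors. *Icam1* ran from 763.6 to 1333.4 in control and from 442.6 to 753 in knockout tumors, while the subunits overlapped between groups.

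*Icam1* fell to 65.8% of the control mean. It had 1333.4, 763.6, 794.7, 949.1 and 873.3 normalized counts in control tumors 1 to 5. It had 678.9, 668.9, 723.1, 442.6 and 753 in the clone 4 tumors and 674.6, 647.2, 570.7, 517.2 and 527.3 in the clone 18 tumors. Each of the 10 knockout tumors was below the lowest control tumor, a separation that 4.87% of all genes tested also showed. Tumor 1 was far above the other controls, and tumor 9 lay below the other clone 4 tumors. The group means were 943 ± 229.9 (SD, n = 5) in control, 653 ± 123 (n = 5) in clone 4 and 587 ± 70.7 (n = 5) in clone 18.

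The log2 difference of *Icam1* between knockout and control was -0.59 (SE 0.14, 95% interval -0.88 to -0.30, limma adjusted p = 0.00464). An exact permutation test over every split of the tumors into 5 and 10, two-sided, gave p = 0.000333, the smallest that it can give. The call held with each tumor left out in turn, with log2 differences of -0.66 to -0.46, the smallest without tumor 1. Clone 4 alone differed from the control by -0.52 (SE 0.16, limma adjusted p = 0.0286, where 16.8% of all genes passed). That call was lost without tumor 1 (-0.39, adjusted p = 0.0732), tumor 4 (-0.51, 0.0565) or tumor 9 (-0.39, 0.0726). Clone 18 alone differed by -0.66 (SE 0.16, limma adjusted p = 0.00526, where 24.7% of all genes passed). These comparisons share the 5 control tumors. Clone 18 minus clone 4 was -0.14 (95% interval -0.47 to 0.19, limma adjusted p = 0.70).

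In bulk RNA, fewer cells that carry a transcript and less transcript per cell cannot be told apart. *Icam1* (ENSMUSG00000037405) lies on chromosome 9 from 21015985 to 21028817 on the plus strand (GENCODE M21, GRCm38) and overlaps *Gm47079* on the other strand. Whether counting used the strand is not given in the sources used here, so reads of the overlap cannot be assigned to either gene. *Icam1* is also on a list of immune genes that the study examined in these tumors. From the same RNA data the study reported it as significantly lower in the knockout tumors. The tests given here are therefore not independent evidence for that difference. By real-time PCR the study also measured *Icam1* in cultured Renca cells, as a gene induced by interferon-γ. There it reported that the rise after interferon-γ was largely suppressed when *Pbrm1* was knocked out. Those were treated cells in culture, whereas the values here are of whole tumors.

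The 250 bases before the RefSeq start sites of *Icam1*, *Nfkbia* and *Tnfaip3*, which encode an adhesion molecule and the inhibitors IκBα and A20, are shown because they share a κB-type motif, GGAAATTCC, although only *Icam1* of these differed between the groups. *Birc3*, the other member that differed, is shown for contrast. Sequences are of the C57BL/6J reference (RefSeq, GRCm38.p6), not of the BALB/c tumors, and run 5′ to 3′ along the gene. Capitals mark matches to GGAAATTCC and to the κB consensus.
*Icam1*, chr9:21015690-21015939, + strand: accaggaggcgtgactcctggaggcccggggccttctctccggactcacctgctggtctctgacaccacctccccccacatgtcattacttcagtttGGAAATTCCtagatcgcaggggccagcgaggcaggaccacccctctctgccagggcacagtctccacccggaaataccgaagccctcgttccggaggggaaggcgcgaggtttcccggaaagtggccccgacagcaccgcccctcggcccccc
*Nfkbia*, chr12:55492648-55492897, - strand: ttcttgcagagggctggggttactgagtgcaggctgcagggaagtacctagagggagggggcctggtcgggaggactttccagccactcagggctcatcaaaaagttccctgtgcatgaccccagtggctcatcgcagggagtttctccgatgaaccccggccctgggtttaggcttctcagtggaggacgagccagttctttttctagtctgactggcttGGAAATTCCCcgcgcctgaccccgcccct
*Tnfaip3*, chr10:19015411-19015660, - strand: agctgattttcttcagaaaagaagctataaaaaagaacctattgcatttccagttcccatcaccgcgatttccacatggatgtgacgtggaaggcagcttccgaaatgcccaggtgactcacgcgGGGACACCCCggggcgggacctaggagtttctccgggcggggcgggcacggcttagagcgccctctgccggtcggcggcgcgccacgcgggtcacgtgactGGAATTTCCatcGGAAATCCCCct
*Birc3*, chr9:7873171-7873420, - strand: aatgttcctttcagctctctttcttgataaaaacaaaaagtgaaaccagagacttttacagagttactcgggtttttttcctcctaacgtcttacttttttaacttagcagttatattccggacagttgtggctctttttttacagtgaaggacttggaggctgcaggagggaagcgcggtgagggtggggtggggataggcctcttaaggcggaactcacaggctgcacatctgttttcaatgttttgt
Of the 10 members, 8 were matched in the promoter table, with 11 windows. Both strands were searched in all 32851 windows of the table. GGAAATTCC was in 0.286% of all windows, and *Icam1* held it from -153 to -145, *Nfkbia* from -29 to -21 and *Tnfaip3* from -24 to -16, on the other strand in *Tnfaip3*. The *Nfkbia* match lies inside a match to the κB consensus, which was in 7.25% of all windows and in windows of 4 members (*Nfkb2*, *Nfkbia*, *Rel* and *Tnfaip3*). The *Birc3* window held neither. GGGCGG, the core letters of SP1 sites, was in 32.7% of all windows and in windows of 7 members, and TATAAA was in 12.4% of all windows and in those of *Tnf* and *Tnfaip3*. The motifs were chosen with the sequences in view, and a match of letters does not show binding.

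*Birc3* (ENSMUSG00000032000, chromosome 9 from 7848699 to 7873186, minus strand), which encodes cIAP2, a ubiquitin ligase of the TNF receptor complex and itself an NF-κB target, had 85.1% of the control mean in the knockout tumors. Its normalized counts were 1310.2, 1111.5, 1079.4, 1118.3 and 1177.9 in the control tumors. They were 894.9, 999.5, 1007.6, 953.5 and 1212 in clone 4 and 897, 948.6, 891.4, 914.2 and 1149.7 in clone 18. In 8 of 10 knockout tumors *Birc3* lay under the lowest control value, while tumors 10 and 15 lay within the control range. The log2 difference was -0.24 (SE 0.08, 95% interval -0.40 to -0.07, limma adjusted p = 0.0404, exact permutation p = 0.0113). The call rested on the tumors included. With tumor 1, 2, 4, 5, 6, 8, 9, 11, 12, 13 or 14 left out, the adjusted p was 0.0511 to 0.13, highest without tumor 1, and the log2 difference was -0.19 to -0.25. It held without tumor 3, 7, 10 or 15.

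For each clone alone, *Birc3* differed from the control by -0.20 in clone 4 (SE 0.09, limma adjusted p = 0.155) and by -0.28 in clone 18 (SE 0.09, limma adjusted p = 0.0355). The clone 4 difference passed without tumor 10 (-0.26, adjusted p = 0.0451). The clone 18 call was lost without tumor 1, 5, 11, 12, 13 or 14 (adjusted p 0.0605 to 0.0944). Clone 18 minus clone 4 was -0.08 (95% interval -0.27 to 0.12), and no member passed that comparison, in which 4.62% of all genes did. At an unadjusted p under 0.05 it held 1 member, *Nfkb1*.

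**Figure D2:**
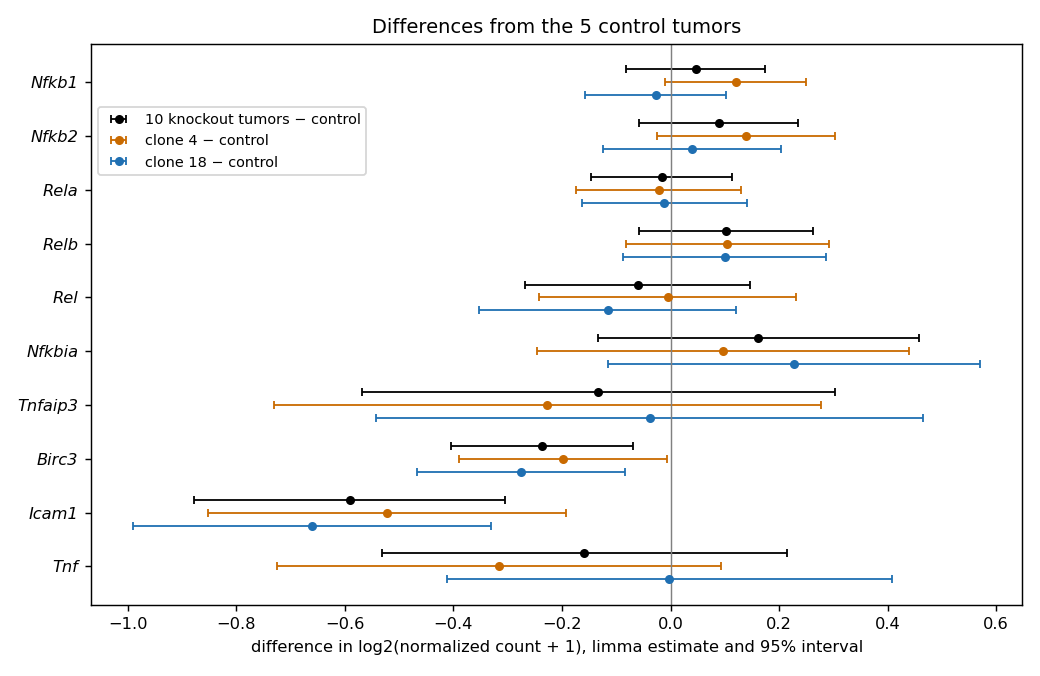
Log2 difference from the 5 control tumors (x axis, log2(normalized count + 1)) for each member, for all 10 knockout tumors and for each clone, with the limma 95% interval as the bar. The intervals of *Icam1* lie below 0 in all 3 comparisons (knockout -0.88 to -0.30), and the interval of *Rela* spans 0 (-0.15 to 0.11).

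The feedback inhibitors did not differ between the groups beyond their spread, and the spread was wide. *Nfkbia* (ENSMUSG00000021025, chromosome 12 from 55489410 to 55492647, minus strand), which encodes IκBα, had 1825.5, 2341, 1993.7, 3632.7 and 2048 normalized counts in control tumors 1 to 5. It had 2061.7, 2458.7, 2434, 2018.4 and 3551.3 in clone 4 and 2762.5, 2599.8, 2742.3, 2575.1 and 2752.9 in clone 18. Tumor 4 and tumor 10 were high above the rest of their groups, whereas the 5 clone 18 tumors lay close together, so the coefficient of variation was 30.9% in control, 24.7% in clone 4 and 3.39% in clone 18. The knockout minus control difference was 0.16 (SE 0.14, 95% interval -0.13 to 0.46, limma adjusted p = 0.458). Clone 18 minus control was 0.23 (SE 0.16, limma adjusted p = 0.34), and it passed without tumor 4 (0.39, adjusted p = 0.0352). With tumors 4 and 10 left out together, knockout minus control was 0.28 (limma adjusted p = 0.048), but those tumors were picked for their own *Nfkbia* values, and the setting was added after the data were seen.

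*Tnfaip3* (ENSMUSG00000019850, chromosome 10 from 19000910 to 19015657, minus strand), which encodes the ubiquitin-editing enzyme A20, had 986.4, 1282.4, 891.1, 1971 and 1338.6 normalized counts in the control tumors. It had 638.4, 954.6, 1109.1, 1026.3 and 1949.4 in clone 4 and 1107.2, 1397.7, 958.2, 1320.1 and 1331.1 in clone 18. It had the widest range of the members, 3.09 times from the lowest tumor (6) to the highest (4), and the groups overlapped. The log2 difference was -0.13 (SE 0.21, 95% interval -0.57 to 0.30, limma adjusted p = 0.706), and without tumor 4 it turned to 0.03. The interval includes changes in either direction.

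*Tnf* (ENSMUSG00000024401, chromosome 17 from 35199381 to 35202007, minus strand), the cytokine, was the member with the fewest reads. It had 198.4, 251, 209.6, 335 and 261.2 normalized counts in control, 213.1, 168.2, 172.1, 162.7 and 303 in clone 4 and 354.1, 246.1, 209.4, 216.5 and 229.5 in clone 18. In each group 1 tumor stood high (tumors 4, 10 and 11), and 4 of 5 tumors of each clone were below the control mean. The log2 difference was -0.16 (SE 0.18, 95% interval -0.53 to 0.21, limma adjusted p = 0.578). Clone 4 minus control was -0.32 (SE 0.19, limma adjusted p = 0.308) and clone 18 minus clone 4 was 0.31 (95% interval -0.10 to 0.72, limma adjusted p = 0.419).

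Tumors 4 and 10 recurred among these genes. Tumor 4 was the highest control tumor and tumor 10 the highest clone 4 tumor for *Nfkbia*, *Tnfaip3* and *Tnf*. On the log2 scale tumor 4 lay 0.66 above its group mean for *Nfkbia*, 0.66 for *Tnfaip3* and 0.44 for *Tnf*. Tumor 10 lay 0.53, 0.88 and 0.61 above its own. Tumor 10 was also the highest of clone 4 for *Relb*, *Rel*, *Birc3* and *Icam1*, 7 of 10 members in all, whereas tumor 4 was the highest control tumor for 1 further member, *Nfkb2*, and the lowest for *Nfkb1* and *Rel*. The summed level of 5 neutrophil markers was likewise highest in these tumors, 1720.1 in tumor 4 against 760.1 to 1183.8 in the other controls and 1959.4 in tumor 10 against 494.4 to 742.4 in the rest of clone 4. Tumor 10 was also the highest of clone 4 for the summed pan-leukocyte (13055.6), T cell (117), B cell (55.7), NK cell (42.4), endothelial (11628.7), fibroblast (58055.1) and skeletal muscle markers (900). The part of these cells in the levels of the members was not tested. For how many of all genes tumor 4 or tumor 10 was the highest of its group is not given here. The count of 7 of 10 members therefore has no background.

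**Figure D3:**
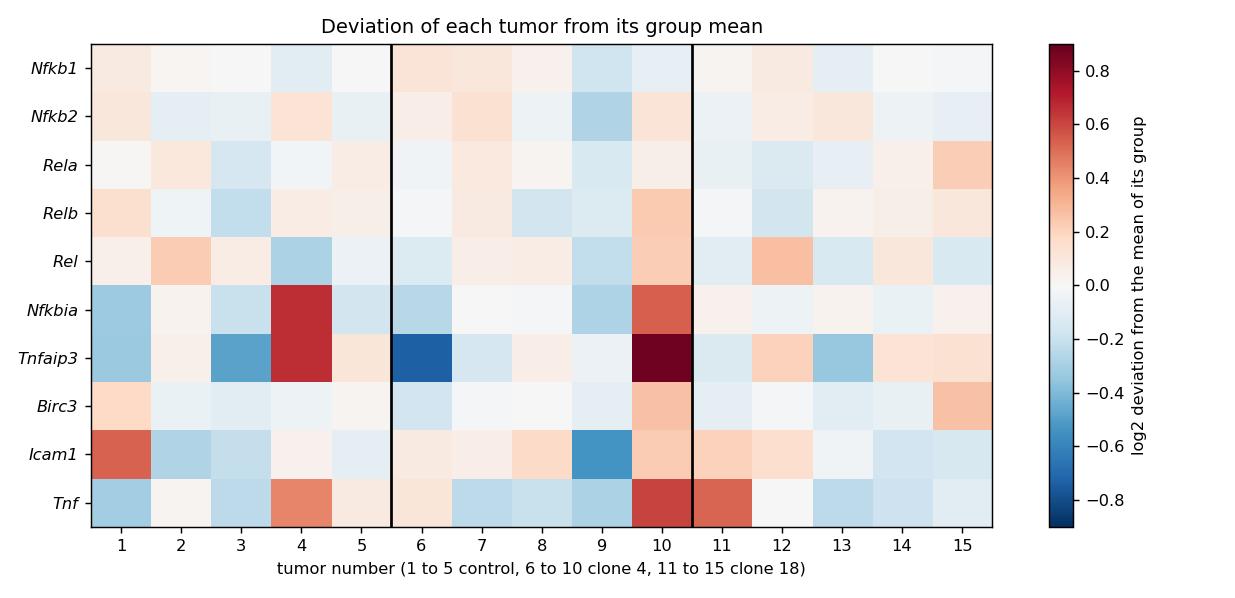
Log2 deviation of each tumor from the mean of its group (color) for each member (rows) over tumors 1 to 15 (columns), with black lines between control, clone 4 and clone 18. *Nfkbia*, *Tnfaip3* and *Tnf* are high together in tumor 4 (0.66, 0.66 and 0.44) and tumor 10 (0.53, 0.88 and 0.61), and *Icam1* is high in tumor 1.

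The subunit transcripts varied little. Their genes lie on chromosome 3 from 135584655 to 135691547 (*Nfkb1*), chromosome 19 from 46304320 to 46312385 (*Nfkb2*) and from 5637483 to 5648130 (*Rela*), chromosome 7 from 19606217 to 19629438 (*Relb*) and chromosome 11 from 23736847 to 23770970 (*Rel*). *Nfkb1* (p105, the precursor of p50) had 4700.6 to 5347.6 normalized counts in control, 4844.7 to 5933.5 in clone 4 and 4675.6 to 5235.3 in clone 18. *Nfkb2* (p100, the precursor of p52) had 1486.7 to 1711 in control, 1438.2 to 1901.6 in clone 4 and 1539.3 to 1737 in clone 18. *Rela*, whose product p65 forms the canonical dimer with p50, had 2237.6 to 2651.1, 2222.1 to 2602 and 2250.4 to 2878.3. The 3 groups overlapped for each of them. *Relb*, whose product pairs with p52 in the noncanonical pathway, had 748.3 to 962.1 in control, 833.5 to 1100.6 in clone 4 and 834.2 to 1000.8 in clone 18. *Rel*, which encodes c-Rel, prominent in lymphoid cells, had 564.7 to 808.5, 589.4 to 800.9 and 578.6 to 769.

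Knockout minus control was 0.05 for *Nfkb1* (95% interval -0.08 to 0.17), 0.09 for *Nfkb2* (-0.06 to 0.24), -0.02 for *Rela* (-0.15 to 0.11), 0.10 for *Relb* (-0.06 to 0.26) and -0.06 for *Rel* (-0.27 to 0.15). The limma adjusted p ranged from 0.377 (*Relb*) to 0.89 (*Rela*). The direction of *Rela* was not stable, since edgeR on whole reads gave a value just above 0. The largest subunit difference between lines was *Nfkb1*, 0.12 in clone 4 and -0.03 in clone 18, with 3 clone 4 tumors above each clone 18 tumor and clone 18 minus clone 4 at -0.15 (95% interval -0.28 to -0.02, limma adjusted p = 0.205). *Nfkb2* overlaps *Psd* and *AC114539.1* on the other strand, so its counts carry the same limit as those of *Icam1*. *Nfkb1* overlaps *Gm43430* on the same strand, where strand could not separate the reads of the overlap.

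Per kilobase of merged exons, the order of the members in control tumors was *Nfkbia* (1470.9 normalized counts per kb), *Rela* (810.3), *Nfkb1* (419), *Nfkb2* (344), *Birc3* (232), *Relb* (225), *Icam1* (216), *Tnfaip3* (179), *Tnf* (153) and *Rel* (93.0). Neighbors from *Nfkbia* to *Birc3*, and *Tnf* against *Rel*, kept this order in 5 of 5 control tumors with no overlap. The merged length takes in all annotated exons, 12061 bases for *Nfkb1* and 3072 for *Rela*. It is the same in every tumor, so agreement between tumors does not test it, and the order holds for this length only. From *Birc3* to *Tnf* each gene overlapped the next, so the middle of the order is not resolved even on this length. *Icam1* had 216 ± 52.7 (SD, n = 5) per kb in control, 149.8 ± 28.1 in clone 4 and 135 ± 16.2 in clone 18.

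Ratios within a tumor compare 2 transcripts without regard to the size factor. The *Icam1*/*Nfkbia* ratio was 0.731, 0.326, 0.399, 0.261 and 0.427 in the control tumors, 0.33, 0.272, 0.297, 0.22 and 0.212 in clone 4 and 0.244, 0.249, 0.208, 0.201 and 0.192 in clone 18. In 7 of 10 knockout tumors the ratio lay under the lowest control value, that of tumor 4. The mean log2 ratio was lower by 0.75 in the knockout tumors (log2 difference -0.75, exact permutation p = 0.00233, 0.0117 adjusted over 5 ratios), and this held with each tumor left out. The other 4 ratios did not pass.

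*Icam1*/*Birc3* differed by -0.35 (exact permutation p = 0.023, adjusted 0.0574) and *Icam1*/*Tnfaip3* by -0.46 (exact permutation p = 0.117, adjusted 0.147). *Relb*/*Rela* differed by 0.12 (exact permutation p = 0.0626, adjusted 0.104) and *Nfkb2*/*Nfkb1* by 0.04 (exact permutation p = 0.507). *Icam1*/*Birc3* was past the threshold without tumor 2, 6, 8 or 11 (adjusted p 0.0341 to 0.04995), *Icam1*/*Tnfaip3* without tumor 6 (0.0483) and *Relb*/*Rela* without tumor 8 (0.0341).

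**Figure D4:**
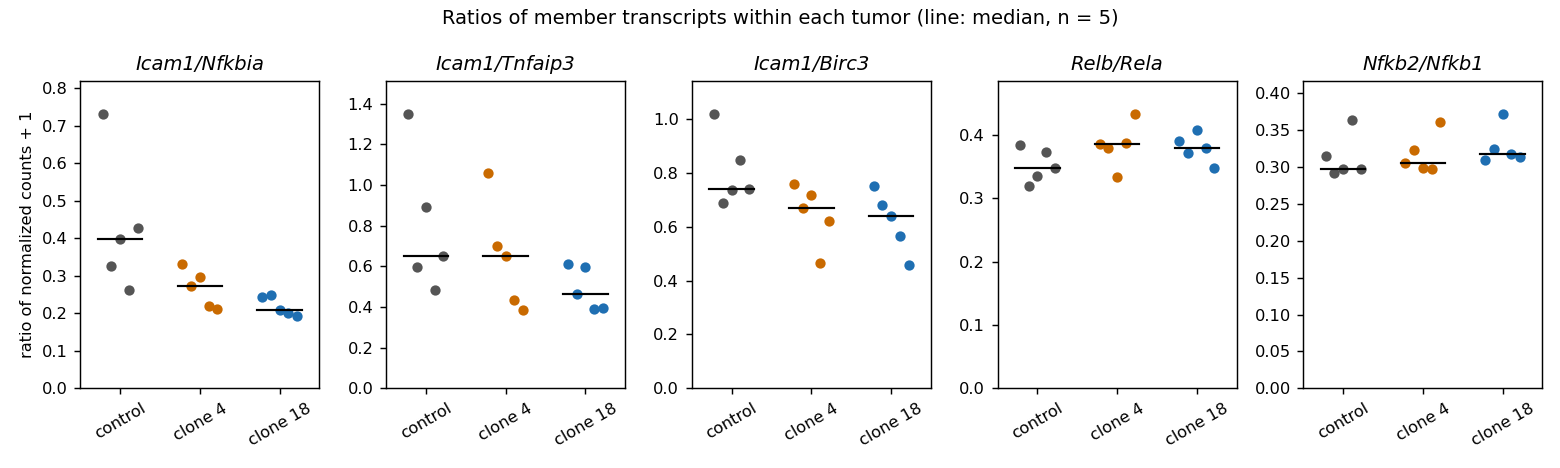
Ratio of normalized counts of 2 members within each tumor (y axes, from 0) for control, clone 4 and clone 18, with the median as a line. *Icam1*/*Nfkbia* was 0.261 to 0.731 in control, 0.212 to 0.33 in clone 4 and 0.192 to 0.249 in clone 18, and *Nfkb2*/*Nfkb1* overlapped throughout.

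Around the members, 71 of 73 listed NF-κB pathway genes were measured, of which 8 were higher, 11 were lower and 52 did not pass. That is 26.8% called, beside 22.1% of all genes, and the median log2 difference was -0.08, beside -0.02. The 3 IKK subunits did not pass, with *Chuk* at -0.02, *Ikbkb* at -0.09 and *Ikbkg* at -0.14 on the log2 scale (limma adjusted p = 0.851, 0.35 and 0.161). Of 10 receptors 4 were lower and 0 higher, and the median over the receptors was -0.24.

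*Cd40*, a receptor through which T cells activate antigen-presenting cells, differed by -1.02 (SE 0.13, limma adjusted p = 2.77e-05). It had 1197.8 to 1827.8 normalized counts in control and 598.4 to 963.2 in knockout tumors, without overlap. Such a separation was shown by 4.87% of all genes tested. *Il1r1*, the receptor of interleukin 1, differed by -0.66, *Tnfrsf11a*, which encodes RANK, by -0.58 and *Tnfrsf1b*, the TNF receptor found mainly on leukocytes and endothelium, by -0.52 (limma adjusted p = 0.00325, 0.0105 and 0.00133). *Tnfrsf1b* was lower than each control in 9 of 10 knockout tumors.

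Of 6 ligands measured, 1 was higher, *Tnfsf12* (TWEAK, log2 difference 0.44), while the list's median was -0.40. Of 18 adaptors and kinases 4 were higher and 3 lower, with *Traf5* at 0.49 and *Tab3*, which encodes a partner of the kinase TAK1, at -0.41. Of the 5 other IκB family members 1 was higher, *Bcl3*, a nuclear coactivator of p50 and p52 dimers, at 0.38. Of 7 other inhibitors 2 were lower, both deubiquitinases, *Otulin* at -0.36 and *Cyld* at -0.35. Both had each knockout tumor below each control, as 4.87% of all genes tested did. Among the genes named in this paragraph the limma adjusted p ranged from 0.000651 (*Cyld*) to 0.0498 (*Bcl3*), and it was 0.00153 for *Otulin*.

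Of 22 other NF-κB targets 2 were higher and 2 lower, and 18 did not pass. *Lcn2*, which encodes the iron-carrier-binding protein lipocalin 2, differed most, at -1.60 (SE 0.29, limma adjusted p = 0.0008), and *Vcam1*, an adhesion molecule like *Icam1*, differed by -0.96 (SE 0.25, limma adjusted p = 0.0103). *Vcam1* had 1634 ± 213 normalized counts in control, 1232 ± 211 in clone 4 and 574 ± 95.3 in clone 18. *Traf1*, a signaling adaptor that NF-κB induces, was higher by 0.43 (limma adjusted p = 0.0353). *Ccl20*, the other higher target, was listed at 0 in each control tumor and at 0 to 10.0 in knockout tumors, so no fold is given.

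**Figure D5:**
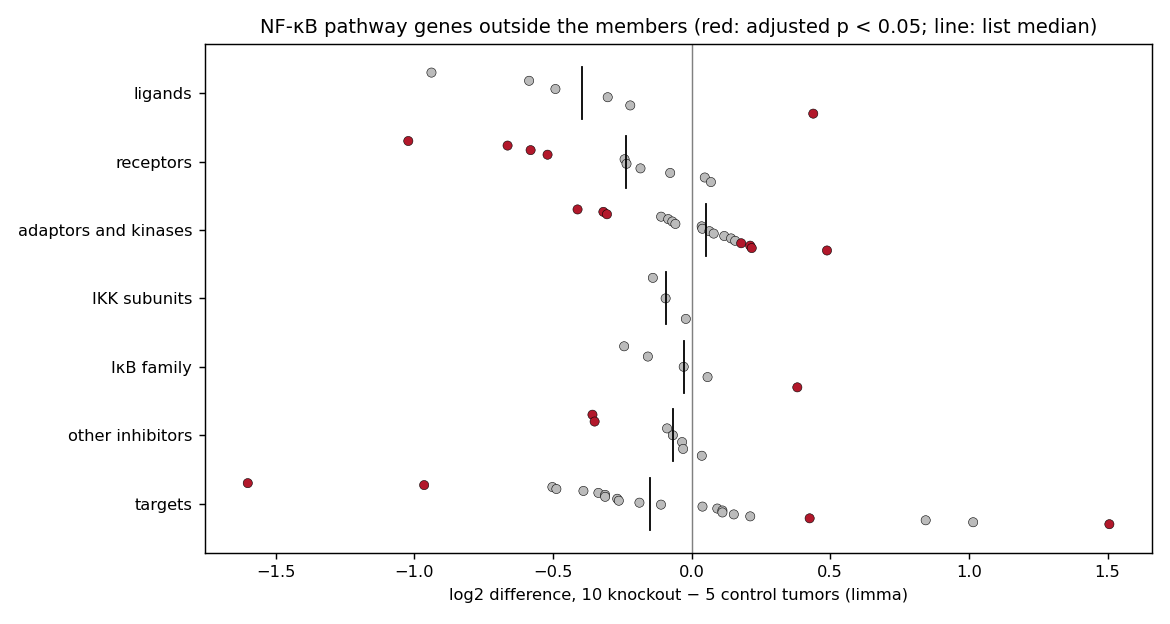
Log2 difference, 10 knockout minus 5 control tumors (x axis), of 71 pathway genes outside the members, by role (rows). Red points passed (limma adjusted p under 0.05), grey points did not, and the vertical tick is the list's median. Receptors that passed lie left of 0 (*Cd40* at -1.02), the IKK subunits lie near 0, and the rightmost point is *Ccl20*, whose position depends on the pseudocount since control tumors were at 0.

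Markers of other cells also differed between the tumors, though not in each list. Their values stand beside the *Icam1*, *Cd40* and *Vcam1* results. Here too, fewer cells and less transcript per cell cannot be told apart. Over all genes tested, 12.9% were lower, and 4.87% had each knockout tumor below each control. Of 6 macrophage markers 4 were lower, and their summed level was 71246.5 to 93586.1 in control and 51385.0 to 70437.6 in knockout tumors, without overlap. *Cd68*, another of the 6, was at 0.12 (limma adjusted p = 0.607) and was higher in clone 18 than in control (0.38, limma adjusted p = 0.018) and than in clone 4 (0.52, limma adjusted p = 0.00998). Of 3 B cell markers measured, *Cd79a* and *Cd79b* were lower (log2 difference -5.60 and -1.11, limma adjusted p = 9.79e-07 and 0.0107). *Ms4a1*, the third, was not (0.12, limma adjusted p = 0.849). The sum of the 3 was 128.9 to 421 in control and 24.5 to 77.2 in knockout tumors, without overlap. The mean of *Cd79a* alone was 171 in control and 1.8 in knockout tumors. Of 5 T cell markers 2 were lower, at a summed 45.7 to 503.7 in control and 21.2 to 117 in knockout tumors. Tumor 1, the tumor highest in *Icam1*, was highest. Endothelial markers (0 of 5 passed, 4778.1 to 10816.3 against 6160.1 to 11628.7) and fibroblast markers (0 of 5 passed, 13615.6 to 21917.1 against 5742.5 to 58055.1) overlapped. Of 3 pan-leukocyte markers 1 was lower, and 0 of 3 NK cell markers passed. Of 5 neutrophil markers 2 were lower, *Csf3r* and *Ly6g*. The sum of the 5 was 760.1 to 1720.1 in control and 494.4 to 1959.4 in knockout tumors. In 9 of 10 knockout tumors, all but tumor 10, it lay under the lowest control sum. *Ly6g* had only 0 to 2 reads per tumor, so no fold is given. Skeletal muscle markers, of which 0 of 3 passed, summed to at most 60.4 in control. They were above this in tumors 9 (348.2), 10 (900), 11 (1235.9), 14 (808.9) and 15 (1126.2), and at 8 to 31.4 in the other knockout tumors. Keratinocyte markers reached 18. The part of other cells in the *Icam1* difference was not tested.

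Of 4 genes for ICAM1 partners or relatives 1 was lower, beside 12.9% of all genes. It was *Itgam*, the integrin chain of macrophages and neutrophils, at -0.52 (SE 0.11, limma adjusted p = 0.00231). *Itgb2*, the β2 chain shared by these integrins, was at -0.01 (limma adjusted p = 0.937). *Itgal*, another of the 4, was at -0.40 (limma adjusted p = 0.247). In clone 18 alone it was lower than in control (-0.73, limma adjusted p = 0.0255, where 24.7% of all genes passed). Clone 18 minus clone 4 was -0.66 and did not pass (limma adjusted p = 0.115).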

How the data were processed

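Bulk RNA of 15 Renca tumors, 5 per group, was analysed from 1 deposited table of 18279 genes. The deposited values are a signal: the authors used TopHat2 for alignment (mm10), HTSeq for gene counts and DESeq for a size factor per tumor, by which each count was divided, and values are given to 0.1. Versions, annotation and strand setting are not given in the sources used here. Values up to 8000 were whole multiples of a step per tumor (100% within 0.06), so whole reads were recovered.

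Of these, 29 had no reads in any tumor, and the other 18250 were tested with limma 3.58.1 with trend on log2(normalized count + 1), once with all knockout tumors against control and once with 1 term per group, with Benjamini-Hochberg adjustment at 0.05. Since the deposited values are not counts, edgeR 4.0.16 and DESeq2 1.42.0 on recovered reads were alternatives, besides pseudocounts of 0.1 and 5, a mean of at least 10, upper quartile scaling, limma without trend, and each tumor left out. Single members and 5 ratios were also tested by exact permutation over every split into 5 and 10 tumors, two-sided. Named genes were the 10 members, the 12 pathway genes with the largest differences among 18 called genes averaging 10 or more normalized counts, and the 3 IKK subunits. Genes named outside this rule were chosen after their values were seen. They are *Ccl20*, *Cyld*, *Itgam*, *Itgb2*, *Itgal*, the markers *Krt18*, *Epcam*, *Cd68*, *Cd79a*, *Cd79b*, *Ms4a1*, *Csf3r* and *Ly6g*, and 14 immediate early and stress genes. The members and lists were chosen with earlier results of these data known, and 1 gene list is not reported here. Lengths and positions are from GENCODE M21 (GRCm38). Scripts were tested on simulated data. Figures were drawn with matplotlib 3.10.9. Permutations ran in Python 3.11.15 with scipy 1.17.1, and models in R 4.3.3.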

Additional observations from a re-analysis of the deposited data

Results flagged for a closer look

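Among 30 groups of 5 tumors (10 members in 3 groups), 5 values lay apart from the rest of their group by Dixon's criterion. For normal values in independent groups, chance gives about 1.5. Here the values were not logged and the members share tumors, so 1.5 is only a rough guide. Dixon's ratio was just over its limit of 0.71 for *Nfkbia* (0.715 in control, 0.713 in clone 4) and for *Icam1* (0.729 in clone 4). *Nfkbia* was apart in control tumor 4 (3632.7 normalized counts, against 2341 for the next highest) and in clone 4 tumor 10 (3551.3 against 2458.7). *Birc3* was apart in clone 18 tumor 15 (1149.7 against 948.6) and *Tnf* in clone 18 tumor 11 (354.1 against 246.1). *Icam1* was apart at the low end in clone 4 tumor 9 (442.6 against 668.9).

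The knockout lines differed from each other, by the test of that difference, in *Cd40* (clone 18 minus clone 4, log2 -0.50, limma adjusted p = 0.00325) and in *Vcam1* (log2 -1.10, limma adjusted p = 6.15e-05). *Vcam1* differed from control by -0.42 in clone 4 (limma adjusted p = 0.0356) and by -1.51 in clone 18 (limma adjusted p = 3.74e-07).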

How the results depend on the processing

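*Icam1* kept its direction and call in knockout against control under all 7 other settings of scale, filter and tool and all 15 fits with 1 tumor left out (limma adjusted p 0.00333 to 0.0174 in the latter). The number of members past the threshold was 1 under limma without trend, where *Birc3* had an adjusted p of 0.0524, and 1 to 2 with 1 tumor left out. The number of genes past the threshold was 3210 to 4176 with 1 tumor left out and at most 4586 (DESeq2) under the other settings.

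Small differences changed sign. With edgeR on whole reads, *Rela* became 0.0038 in knockout against control and 0.0156 in clone 18 against control, *Rel* 0.0064 in clone 4, *Tnf* 0.0233 in clone 18, and *Relb* 0.0021 in clone 18 against clone 4. With upper quartile scaling, *Rela* and *Tnf* in clone 18 became 0.009 and 0.018, and *Relb* in clone 18 against clone 4 became 0.0184. With 1 tumor left out, knockout against control ranged from -0.0541 to 0.007 for *Rela* and from -0.2528 to 0.0333 for *Tnfaip3*. Clone 4 against control ranged from -0.0593 to 0.0134 for *Rela*, -0.0771 to 0.0522 for *Rel* and -0.0377 to 0.2619 for *Nfkbia*. Clone 18 against control ranged from -0.067 to 0.0218 for *Rela*, -0.1583 to 0.1278 for *Tnfaip3* and -0.1325 to 0.1079 for *Tnf*. Clone 18 against clone 4 ranged from -0.0454 to 0.0433 for *Rela* and -0.0467 to 0.0534 for *Relb*. The cause of these sign changes was not tested. The log2 ratio differences kept their sign with 1 tumor left out, and only passing the threshold changed. They ranged from -0.6144 to -0.2424 for *Icam1*/*Tnfaip3*, -0.4085 to -0.2669 for *Icam1*/*Birc3* and 0.085 to 0.1508 for *Relb*/*Rela*.

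A setting chosen after seeing the data left out tumors 4 and 10, the tumors highest in *Nfkbia*, *Tnfaip3* and *Tnf* of their groups. It gave 3 members past the threshold, *Nfkbia* being added at 0.2757 (limma adjusted p = 0.048), and since the tumors were picked by the members' own values, this p is not independent evidence. No paired analysis was possible because no label links tumors of different groups.

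With 5 tumors per group, the 95% interval of the knockout minus control difference was narrow for *Rela* (-0.15 to 0.11) and wide for *Tnfaip3* (-0.57 to 0.30) and *Tnf* (-0.53 to 0.21).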

Other observations

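After the high values of *Nfkbia*, *Tnfaip3* and *Tnf* in tumors 4 and 10 had been seen, 14 immediate early and stress genes were looked at (*Fos*, *Fosb*, *Jun*, *Junb*, *Egr1*, *Egr2*, *Ier2*, *Atf3*, *Zfp36*, *Dusp1*, *Nr4a1*, *Myc*, *Hspa1a* and *Hspa1b*), genes that cells switch on quickly after a stimulus or heat. Tumor 4 was the highest control tumor for 7 of the 14, and tumor 10 the highest clone 4 tumor for 13 of the 14. The share of all genes for which these tumors were highest is not given here, so neither count has a background. *Fos* had 4600.9 normalized counts in tumor 4 against at most 2138.5 in the other controls, and 3060 in tumor 10 against at most 1167.4 in the rest of clone 4. *Egr2* was highest in tumor 8 of clone 4, and *Dusp1* and *Zfp36* were highest in control tumor 2. Between knockout and control, *Dusp1*, a phosphatase that ends MAP kinase signals, differed by -1.23 (SE 0.15, limma adjusted p = 2.64e-05), and *Zfp36*, whose product speeds the decay of *Tnf* mRNA, by -0.57 (SE 0.14, limma adjusted p = 0.00651). The other 12 did not pass. No explanation for the shared high values was tested.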
